A study of Mus musculus with 5 samples.

Results

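The antiviral interferon-stimulated genes are the 39 genes, of 36401 listed, whose symbol is 1 of a fixed set of type I interferon effectors, without the GTPase families and antigen processing. All 39 were found once, and all 39 passed the filter on low counts. They were compared in liver RNA (lobe 1) of BALB/C mice sacrificed on day 10 of life, with 3 Mdr2+/- (heterozygous) libraries and 2 Mdr2+/+ (wild-type) libraries. Mdr2 is the older name of Abcb4, the hepatocyte floppase that moves phosphatidylcholine into bile, and the study set liver transcripts of pups lacking an Mdr2 allele beside those of pups with both. The Mdr2 null allele had been backcrossed into BALB/c and is carried in every tissue, so no cell type was targeted. The genotypes were kept as littermates, but the labels tie no pup to a litter and no library to its own animal. The p-values therefore cover sample-to-sample spread alone, part of which may be technical.

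Type I interferons bind a receptor on nearly every cell, and Janus kinases then activate a transcription factor complex, with IRF9 as its DNA-binding part, that recognises the interferon-stimulated response element (ISRE). Interferon gamma acts mainly through gamma-activated sites (GAS). The genes switched on include RNA sensors, proteins that block or degrade viral RNA, and the ubiquitin-like modifier ISG15 with its enzymes. In liver these genes are expressed by hepatocytes as well as by Kupffer and other immune cells.

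Promoter sequences are shown for 3 members that were lower in heterozygous livers (Isg15, Ifi35, Nmi) and for 2 that did not pass the test (Ifit1, Oas1a), because these differ in the response elements they hold. Each is a window of 300 bases, 250 before and 50 after a RefSeq start site on GRCm38.p6 (C57BL/6J, not BALB/c), read on the gene's own strand. Capitals mark the ISRE core on either strand (GAAA, any 2 bases, then GAAA, which reads TTTC, any 2 bases, TTTC on the other strand) or TTCNNNGAA (the GAS core, which reads the same on both strands). The windows are chr4:156200769-156201068 (minus strand) for Isg15, chr11:101448162-101448461 (plus) for Ifi35, chr2:51973159-51973458 (minus) for Nmi, chr19:34640639-34640938 (plus) for Ifit1 and chr5:120907476-120907775 (minus) for Oas1a.
Isg15: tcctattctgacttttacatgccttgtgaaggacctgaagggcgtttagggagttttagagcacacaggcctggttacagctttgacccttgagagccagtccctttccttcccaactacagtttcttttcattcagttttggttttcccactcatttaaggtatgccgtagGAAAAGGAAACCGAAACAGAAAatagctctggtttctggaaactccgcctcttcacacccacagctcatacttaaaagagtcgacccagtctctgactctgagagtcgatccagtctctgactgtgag
Ifi35: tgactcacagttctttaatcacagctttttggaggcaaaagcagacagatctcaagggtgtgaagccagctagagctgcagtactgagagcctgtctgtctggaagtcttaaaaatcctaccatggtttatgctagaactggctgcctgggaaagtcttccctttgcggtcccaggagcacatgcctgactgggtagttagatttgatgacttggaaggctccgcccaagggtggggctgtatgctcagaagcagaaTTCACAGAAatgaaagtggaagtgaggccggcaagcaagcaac
Nmi: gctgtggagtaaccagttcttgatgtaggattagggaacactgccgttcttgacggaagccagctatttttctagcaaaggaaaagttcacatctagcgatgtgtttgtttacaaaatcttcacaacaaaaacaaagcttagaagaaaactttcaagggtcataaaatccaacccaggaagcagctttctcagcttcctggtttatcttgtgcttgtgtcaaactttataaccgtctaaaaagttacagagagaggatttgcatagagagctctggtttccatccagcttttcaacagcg
Ifit1: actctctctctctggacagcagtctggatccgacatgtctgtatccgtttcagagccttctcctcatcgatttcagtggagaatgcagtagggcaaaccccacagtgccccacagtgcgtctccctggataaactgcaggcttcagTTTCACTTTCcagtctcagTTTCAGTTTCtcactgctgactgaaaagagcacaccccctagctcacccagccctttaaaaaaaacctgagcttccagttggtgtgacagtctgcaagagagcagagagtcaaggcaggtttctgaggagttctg
Oas1a: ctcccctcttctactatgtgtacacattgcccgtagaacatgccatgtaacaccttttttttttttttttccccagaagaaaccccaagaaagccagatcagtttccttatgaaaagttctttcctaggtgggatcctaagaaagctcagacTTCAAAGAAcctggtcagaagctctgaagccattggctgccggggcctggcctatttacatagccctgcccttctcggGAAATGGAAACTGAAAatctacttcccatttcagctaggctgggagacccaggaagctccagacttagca
The Isg15 window holds 3 overlapping ISRE matches in 1 run, which begins 78 bases before the start site. The Ifit1 window holds 2 that do not overlap, and Oas1a holds 2 overlapping ISRE matches and, upstream of them, a GAS match. In the Ifi35 window only a GAS match was found, and in the Nmi window neither set of letters. The Nmi window lies wholly inside the GENCODE gene, which begins at 51973494 on its strand. It holds no sequence upstream of that start, so it does not show whether either core lies there.

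The RefSeq promoter table held 28 of the 39 members. At least 1 window with the ISRE core was found for 13 of these 28 (46.4%), against 3.99% of the 27025 genes in the table, and with the GAS core for 5 of 28 (17.9%), against 9.55%. By window, the ISRE core was in 14 of 31 member windows (45.2%) and 3.44% of all windows, and both cores overlapped in 24 of 32851 windows. Of the 5 members in the table that were lower in heterozygous livers, 1 (Isg15) had the ISRE core, as had 12 of the 23 that did not pass. Zbp1 and Rtp4, which were also lower, were not in the promoter table. Among interferon-inducible GTPases the ISRE core was found for 9 of 10 genes in the table and the GAS core for 6 of 10. A match describes letters in a window and says nothing about what binds there.

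Library totals were 12991301 to 17312851 estimated counts in heterozygous livers and 11944157 to 14644529 in wild-type livers, so 3 counts correspond to 0.173 to 0.251 CPM (counts scaled to a common library total). The targeted gene followed the labels: Abcb4 was at 92.6 to 101 CPM in heterozygous livers and 162 CPM in both wild-type livers (log2 fold change -0.74, SE 0.06, adjusted p = 3.4e-04). Hepatocyte markers were abundant in all libraries. Levels below are normalised CPM, scaled by TMM (trimmed mean of M values). The log2 fold change is heterozygous minus wild-type, and adjusted p-values come from edgeR's quasi-likelihood test with Benjamini-Hochberg adjustment over 13959 tested genes (threshold 0.05). Intervals are 95% intervals of the log2 fold change from that fit, not adjusted for the number of genes.

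Of the 39 antiviral genes, 7 were lower in heterozygous livers (17.9%) and 0 were higher. Among all tested genes 5.41% were called lower and 6.63% higher. At an unadjusted p under 0.05, 16 members were lower (41.0%, against 13.4% of all tested genes) and 0 higher, against 14.8%. For 14 members all 3 heterozygous values were under both wild-type values (35.9%), against 22.7% of all tested genes. For 0 members were they above both, against 22.9%. The median log2 fold change of the members was -0.21, ranging from -1.10 to 0.29, beside a median of -0.00245 over all tested genes. In DESeq2's Wald test 6 members were lower and 0 higher, with a median of -0.20. The share over all genes in that test is not given here, so its count is not set against a background. The members' median was -0.06 without wild-type replicate 1 and -0.35 without wild-type replicate 2. Scaling by library size alone changed the split over all genes to 704 higher and 936 lower, against 925 higher and 755 lower with TMM, and called 8 members lower.

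**Figure D1:**
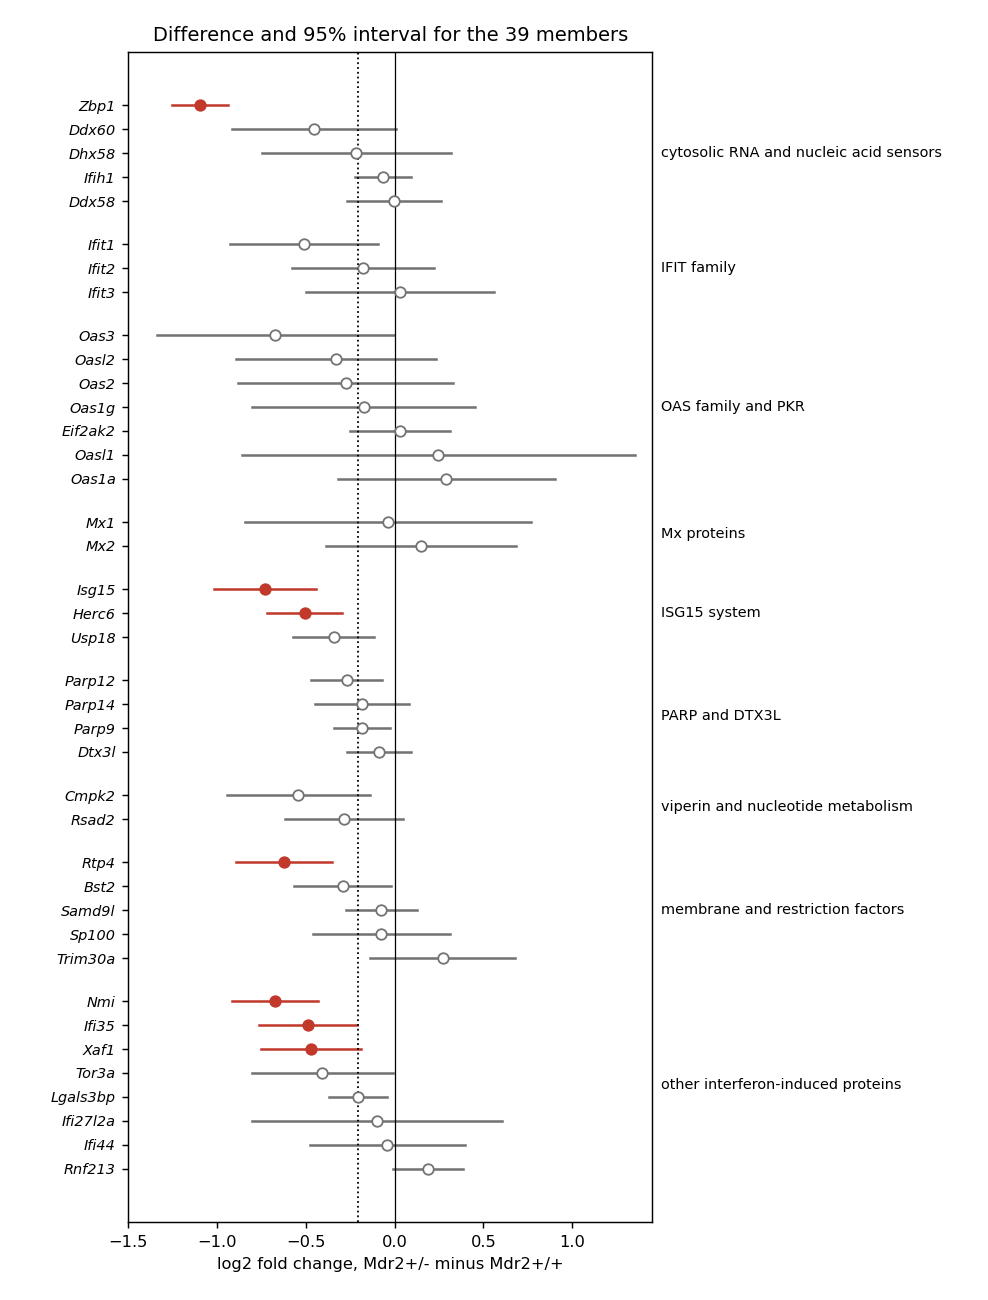
Log2 fold change (x axis, Mdr2+/- minus Mdr2+/+) with its 95% interval for each of the 39 antiviral genes, grouped by role. Filled red points passed adjusted p under 0.05 (7 genes, all below 0), open grey points did not, and the dotted line is the members' median of -0.21.

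The cytosolic sensors held the member with the largest difference. Zbp1 (ENSMUSG00000027514, chromosome 2, 173206612 to 173218923, minus strand, mm10) encodes a sensor of Z-form nucleic acid that can start necroptosis. It was at 23.5, 25.6 and 24.5 CPM in the heterozygous livers and 51.4 and 54.0 CPM in the wild-type livers. The libraries of each genotype lay close together and the groups were far apart. The heterozygous level was 53.3% lower (log2 fold change -1.10, SE 0.07, adjusted p = 8.0e-05), and the call held in 13 of 13 alternative fits, with log2 fold changes of -1.14 to -1.06.

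The RIG-I-like receptors did not pass. Ddx58, which encodes RIG-I, averaged 26.3 ± 0.980 CPM in heterozygous livers (SD, n = 3) and 26.2 ± 5.64 CPM in wild-type livers (SD, n = 2), with an interval of -0.27 to 0.26 (adjusted p = 0.992). Ifih1, which encodes MDA5, the sensor of long double-stranded RNA, averaged 32.9 ± 0.744 CPM in heterozygous livers (n = 3) and 34.3 ± 1.80 CPM in wild-type livers (n = 2). Its interval of -0.22 to 0.09 did not reach the interval of Zbp1, -1.26 to -0.94. Dhx58, which encodes LGP2, a regulator of both receptors, had a log2 fold change of -0.22 with an interval of -0.75 to 0.32. Ddx60, an interferon-induced helicase, had -0.45 (adjusted p = 0.185), with all heterozygous libraries below the wild-type ones.

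In the ISG15 system the modifier and its main ligase were lower. Isg15 (ENSMUSG00000035692, chromosome 4, 156199424 to 156200818, minus strand) encodes the ubiquitin-like protein that is attached to other proteins and also released from cells. It was at 8.63, 10.6 and 9.13 CPM in heterozygous livers and 17.2 and 14.1 CPM in wild-type livers. The groups did not overlap, with a gap wider than the range within heterozygous livers (39.7% lower, log2 fold change -0.73, SE 0.13, adjusted p = 0.00780). Without wild-type replicate 1 the call was lost (log2 fold change -0.58, adjusted p = 0.0653).

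Herc6 (ENSMUSG00000029798, chromosome 6, 57581000 to 57664632, plus strand) encodes the main ligase that attaches ISG15 in mice. It was at 14.9, 16.2 and 14.4 CPM in heterozygous livers and 20.7 and 22.5 CPM in wild-type livers. Each heterozygous value was below both wild-type values (29.7% lower, log2 fold change -0.51, SE 0.09, adjusted p = 0.0103), and the call was lost without wild-type replicate 2 (adjusted p = 0.0591). Usp18, the protease that removes ISG15 and restrains signalling at the type I receptor, was at 14.2, 14.3 and 16.7 CPM in heterozygous livers and 19.4 and 19.0 CPM in wild-type livers. The groups did not overlap, yet Usp18 missed the threshold (log2 fold change -0.34, SE 0.10, adjusted p = 0.0570) and passed in 5 of 13 alternative fits.

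Uba7 and Ube2l6 are not members but belong to the same cascade of ISG15 attachment. Uba7, the activating enzyme, was at 17.2, 17.8 and 15.8 CPM in heterozygous livers and 26.9 and 23.2 CPM in wild-type livers (log2 fold change -0.57, adjusted p = 0.00695, and 0.0600 without wild-type replicate 1). Ube2l6, the conjugating enzyme, was at 83.5, 80.2 and 72.1 CPM in heterozygous livers and 142 and 127 CPM in wild-type livers (log2 fold change -0.77, adjusted p = 8.3e-04), and it passed in 13 of 13 alternative fits. Both enzymes were lower in every heterozygous library than in either wild-type library. Trim25, an ISG15 ligase given below with the sensor adaptor genes, went the other way. It was higher in heterozygous livers and passed in 13 of 13 alternative fits.

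**Figure D2:**
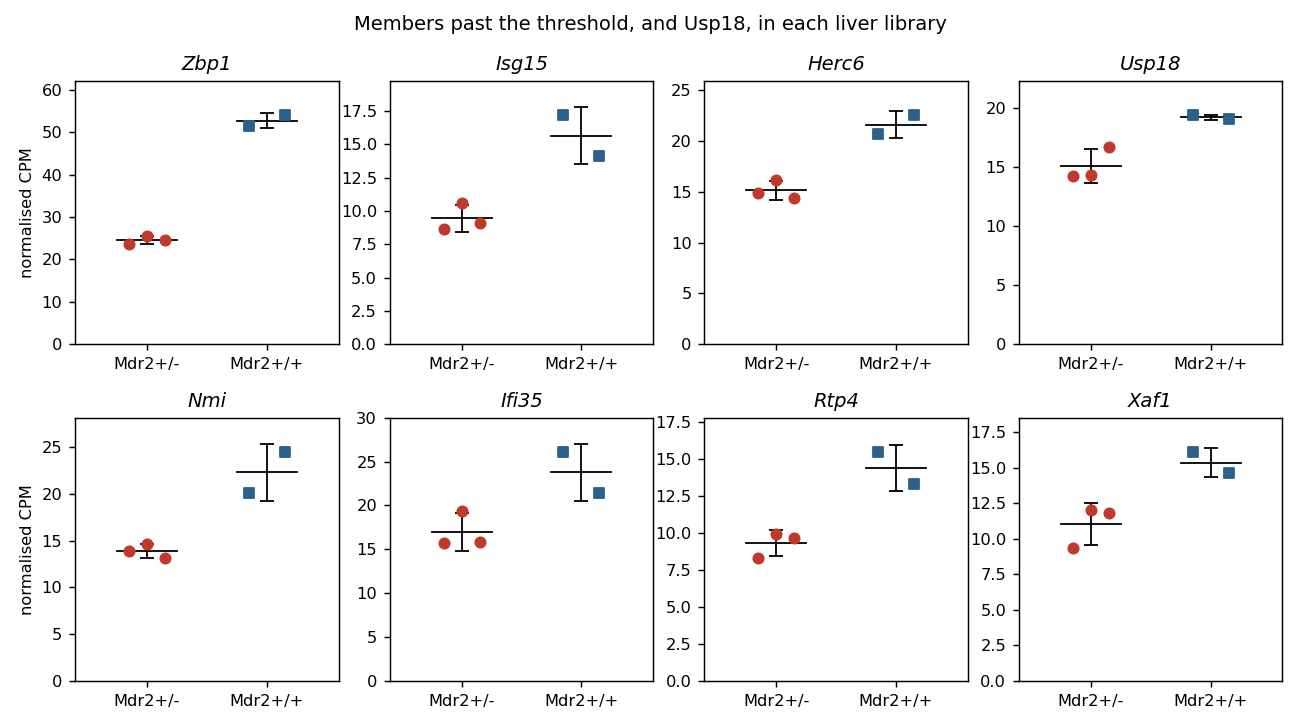
Normalised CPM (y axis, from 0) of the 7 members that passed the test and of Usp18, in each heterozygous (red circles) and wild-type (blue squares) library, with the mean and SD in black. In all 8 panels the heterozygous libraries lie below both wild-type libraries, most widely apart for Zbp1 (23.5 to 25.6 CPM against 51.4 to 54.0 CPM).

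Nmi and Ifi35 encode related proteins that bind each other, and both were lower. Nmi (ENSMUSG00000026946, chromosome 2, 51948487 to 51973494, minus strand) was at 13.9, 14.7 and 13.1 CPM in heterozygous livers and 20.1 and 24.5 CPM in wild-type livers. The heterozygous values were tightly grouped and all below the wild-type ones (37.4% lower, log2 fold change -0.68, SE 0.11, adjusted p = 0.00513), and Nmi passed in 13 of 13 alternative fits. Ifi35 (ENSMUSG00000010358, chromosome 11, 101448407 to 101458698, plus strand) was at 15.7, 19.4 and 15.8 CPM in heterozygous livers and 26.1 and 21.5 CPM in wild-type livers. The highest heterozygous and the lowest wild-type value were close (28.7% lower, log2 fold change -0.49, SE 0.12, adjusted p = 0.0323), and Ifi35 passed in 8 of 13 alternative fits. It was lost when wild-type replicate 1 (adjusted p = 0.220), heterozygous replicate 1 (0.0743) or heterozygous replicate 3 (0.0936) was left out, and with an offset for transcript length (0.0747) or the replicate number as a block (0.0930).

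Xaf1 (ENSMUSG00000040483, chromosome 11, 72301629 to 72313733, plus strand) encodes an antagonist of the apoptosis inhibitor XIAP. It was at 9.34, 12.0 and 11.8 CPM in heterozygous livers and 16.1 and 14.6 CPM in wild-type livers. The groups did not overlap (27.8% lower, log2 fold change -0.47, SE 0.13, adjusted p = 0.0407), but the call was lost with any 1 library left out (adjusted p = 0.0609 to 0.195) and in DESeq2 (0.111), and it held in 5 of 13 alternative fits. With the replicate block its adjusted p was 0.0555.

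Among membrane and restriction factors, 1 of 5 was lower. Rtp4 (ENSMUSG00000033355, chromosome 16, 23520291 to 23614222, plus strand) encodes an interferon-induced receptor transporter protein that inhibits some RNA viruses. It was at 8.32, 9.95 and 9.65 CPM in heterozygous livers and 15.5 and 13.3 CPM in wild-type livers. The gap between the groups exceeded the range within either (35.1% lower, log2 fold change -0.62, SE 0.12, adjusted p = 0.0117), and the call was lost without wild-type replicate 1 (adjusted p = 0.0880).

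Bst2, which encodes tetherin, a protein that holds budding virus on the cell surface, was at 55.6, 56.1 and 65.4 CPM in heterozygous livers and 83.1 and 61.4 CPM in wild-type livers. The groups overlapped, because wild-type replicate 2 lay within the heterozygous range (log2 fold change -0.29, adjusted p = 0.148). Without wild-type replicate 2 Bst2 passed (log2 fold change -0.49, adjusted p = 0.0277), and without wild-type replicate 1 its log2 fold change was -0.06. With an offset for transcript length it was -0.13. The nuclear body protein gene Sp100 and Samd9l, a restriction factor gene, each had a log2 fold change of -0.07. Trim30a, a tripartite motif protein gene, had 0.27 with an interval of -0.14 to 0.68.

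The families that bind or degrade viral RNA showed no called member. Among IFIT genes, whose proteins bind viral RNA and block its translation, Ifit2 had the highest CPM. It was at 6.04, 9.53 and 7.50 CPM in heterozygous livers and 9.11 and 8.41 CPM in wild-type livers, so the groups overlapped (log2 fold change -0.18, adjusted p = 0.565). Ifit1 was at 3.85, 5.64 and 5.70 CPM in heterozygous livers and 7.66 and 6.90 CPM in wild-type livers. All 3 heterozygous values lay below both others, and the test was not passed (log2 fold change -0.51, interval -0.93 to -0.09, adjusted p = 0.106). Ifit3 had a log2 fold change of 0.03 with an interval of -0.50 to 0.56.

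The oligoadenylate synthetases, which activate RNase L when they meet double-stranded RNA, scattered on both sides of 0. Oas1a had the largest positive log2 fold change of all members, at 2.83, 5.10 and 3.55 CPM in heterozygous livers and 3.63 and 2.61 CPM in wild-type livers. The highest and second lowest values were both heterozygous (log2 fold change 0.29, SE 0.27, adjusted p = 0.531). Without heterozygous replicate 2 the log2 fold change of Oas1a was 0.03, and without wild-type replicate 1 it was 0.56, where Ifi27l2a (0.66), Mx1 (0.63), Mx2 (0.61) and Trim30a (0.57) were above it. Oas3 had the lowest value of the family (log2 fold change -0.67, SE 0.30, adjusted p = 0.173), but -0.19 without wild-type replicate 1 and -0.99 without wild-type replicate 2. Oas1g, Oas2 and Oasl2 had -0.17, -0.28 and -0.33, and Oasl1 had 0.25 with an SE of 0.49. Eif2ak2, which encodes PKR, the kinase that stops translation on sensing double-stranded RNA, was at 17.9, 22.4 and 17.9 CPM in heterozygous livers and 20.6 and 17.3 CPM in wild-type livers. The groups overlapped, with wild-type replicate 2 below and heterozygous replicate 2 above all other libraries (log2 fold change 0.03, interval -0.25 to 0.31), and the sign turned with scaling by library size (-0.0095) or with the length offset (-0.0024).

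The Mx genes encode dynamin-like GTPases that block viral nucleocapsids, and most laboratory mouse strains, BALB/c among them, carry a defective Mx1. Mx2 was at 3.92, 3.70 and 3.26 CPM in heterozygous livers and 4.03 and 2.36 CPM in wild-type livers. The heterozygous values lay between the wild-type ones (log2 fold change 0.15, adjusted p = 0.734). Mx1 was at about 1 CPM in both genotypes (1.16 ± 0.271 CPM in heterozygous livers, n = 3, and 1.17 ± 0.585 CPM in wild-type livers, n = 2).

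The ADP-ribosyltransferase genes and Dtx3l, whose protein pairs with PARP9 as a ubiquitin ligase, differed little. Parp9 was at 41.8, 43.7 and 39.7 CPM in heterozygous livers and 46.2 and 48.5 CPM in wild-type livers. Its groups did not overlap, but the difference was small and not called (log2 fold change -0.18, SE 0.07, adjusted p = 0.124). Parp12, Parp14 and Dtx3l had log2 fold changes of -0.27 (adjusted p = 0.0804), -0.18 and -0.09. Parp9 and Dtx3l share exon sequence on opposite strands, and without a stated strand setting their reads cannot be fully told apart.

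Rsad2, which encodes viperin, and Cmpk2, the kinase gene beside it that supplies viperin's substrate, did not pass. Rsad2 was at 11.5, 12.6 and 13.1 CPM in heterozygous livers and 17.7 and 12.3 CPM in wild-type livers. Wild-type replicate 2 lay inside the heterozygous range (log2 fold change -0.28, adjusted p = 0.249). Cmpk2 averaged 5.25 ± 1.09 CPM in heterozygous livers (n = 3) and 7.73 ± 0.00839 CPM in wild-type livers (n = 2), with a log2 fold change of -0.54 (adjusted p = 0.0801).

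The remaining members did not pass either. Lgals3bp, a secreted galectin-binding glycoprotein gene, was at 76.6, 78.5 and 70.6 CPM in heterozygous livers and 90.9 and 82.7 CPM in wild-type livers. The groups did not overlap, and the test was not passed (log2 fold change -0.21, SE 0.07, adjusted p = 0.0937). Rnf213, a very large ubiquitin ligase gene, was at 58.5, 56.4 and 53.9 CPM in heterozygous livers and 54.0 and 44.4 CPM in wild-type livers (log2 fold change 0.19, interval -0.01 to 0.38). With the transcript length offset its log2 fold change was 0.0011, and it was 0.34 without wild-type replicate 1 and 0.06 without wild-type replicate 2. Tor3a, an interferon-induced torsin, had a log2 fold change of -0.41 (adjusted p = 0.169), which was -0.12 without wild-type replicate 1 and -0.62 without wild-type replicate 2. Ifi44 and Ifi27l2a, interferon-induced genes of less defined role, had -0.04 and -0.10, with adjusted p = 0.911 and 0.875.

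Precision followed the counts. The 18 members with a mean under 10 CPM had SEs of 0.18 to 0.49 and 0 were called. The 21 members at 10 CPM or more had SEs of 0.07 to 0.17 and 7 were called. The share of all tested genes called at these levels was not computed. All IFIT, Mx and oligoadenylate synthetase genes were in the lower range. The intervals of Ifit1, Oas1g, Oas2, Oas3, Oasl1, Oasl2 and Mx1 included -0.62, the log2 fold change of Rtp4. At this depth the differences of these genes cannot be told apart from that size. The intervals of Ifit2 (-0.58 to 0.22), Ifit3 (-0.50 to 0.56), Oas1a (-0.32 to 0.90) and Mx2 (-0.39 to 0.68) did not include it.

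Per length of the longest transcript, Bst2 was the most abundant member, at 74.6 CPM per kb in heterozygous and 91.3 CPM per kb in wild-type livers. Lgals3bp came next (32.3 CPM per kb in heterozygous and 37.2 in wild-type livers), then Isg15 (12.5 and 20.7) and Ifi35 (12.5 and 17.5), which did not differ from each other by more than their spread in heterozygous livers. Mx1 was lowest, at 0.342 CPM per kb in heterozygous and 0.346 CPM per kb in wild-type livers. Isg15, Nmi and Ifi35 have short transcripts of 756, 1291 and 1362 bases. With an offset for transcript length the log2 fold changes were -0.56 for Isg15 (adjusted p = 0.0238), -0.57 for Nmi (0.0101) and -0.39 for Ifi35 (0.0747).

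The libraries differed within each genotype, and many members shared the pattern. In 32 of 39 members (82.1%) wild-type replicate 1 was above wild-type replicate 2, against 49.7% of all tested genes, with a median log2 ratio of 0.27 for the members (pseudocount 0.5 CPM). Among the 7 members called lower this held for 4, and among the 32 others for 28. Wild-type replicate 1 was the highest of the 5 libraries for 24 members (61.5%), against 22.9% of all tested genes. Among heterozygous livers, replicate 2 was above replicate 1 for 33 of 39 members (84.6%, against 49.7% of all tested genes). The summed level of the members was 612, 668 and 623 CPM in heterozygous livers and 805 and 703 CPM in wild-type livers.

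**Figure D3:**
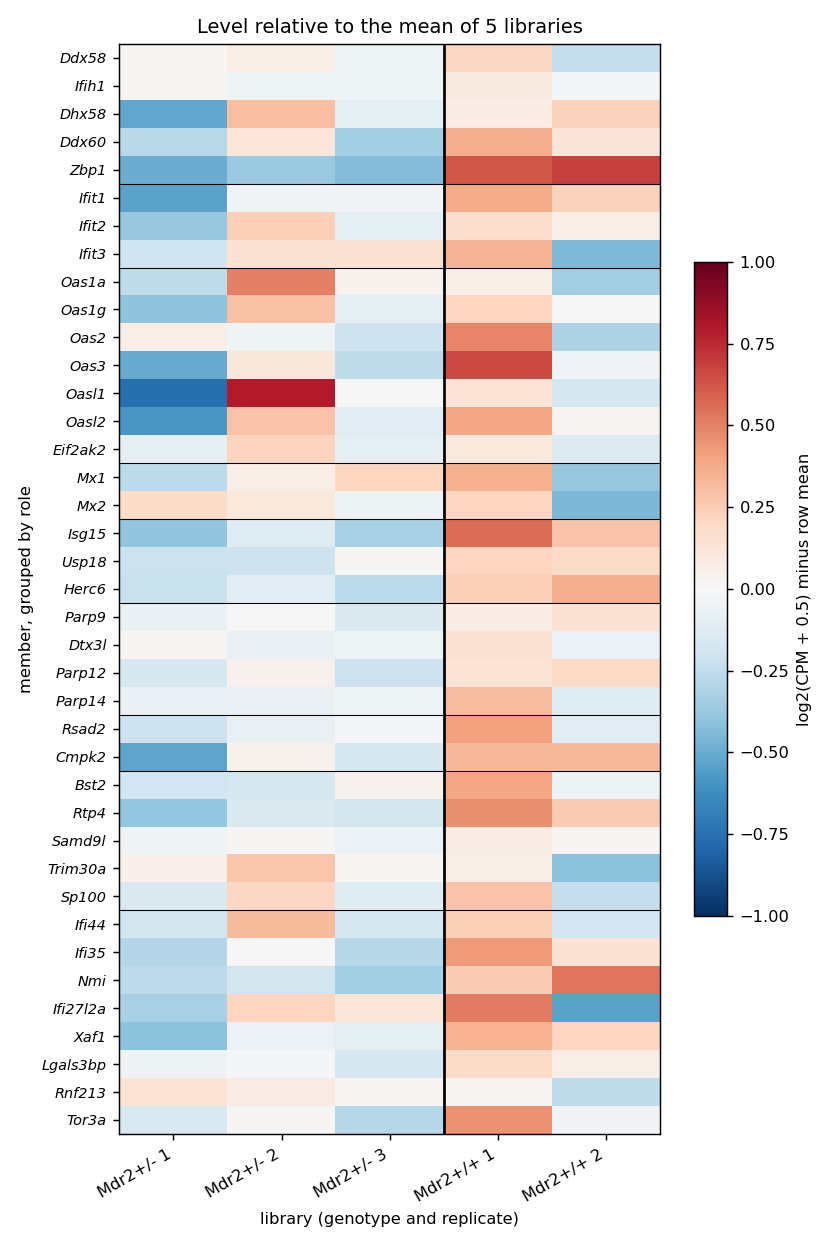
Level of each member in each library as log2(CPM + 0.5) minus the mean of the 5 libraries (colour, red higher and blue lower, limits -1 and 1), with the 3 heterozygous libraries on the left and the 2 wild-type libraries on the right of the thick line. Zbp1, Isg15, Nmi and Rtp4 are blue in all heterozygous and red in both wild-type libraries, while many OAS, IFIT and Mx rows are red in wild-type replicate 1 and pale or blue in wild-type replicate 2.

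Markers of some other cells also differed. For comparison, 5.41% of all tested genes were called lower and 6.63% higher. In lists as short as these, 0 or 1 call is not read as a difference. Kupffer cell and macrophage markers summed to 428 to 496 CPM in heterozygous livers and 415 to 608 CPM in wild-type livers. Of the 9 tested, 3 were called lower (Cd163, Marco and C1qb) and 0 higher. Log2 fold changes were below 0 for 7 and above 0 for 2, Cd5l (0.17) and Csf1r (0.11). Those of Clec4f and Vsig4 were -0.05 and -0.13. All 9 were higher in wild-type replicate 1 than in replicate 2. T and natural killer cell markers summed to 9.18 to 10.3 CPM in heterozygous livers and 11.4 to 16.0 CPM in wild-type livers (1 of 7 lower, 0 higher). The lower gene was Cd3e (log2 fold change -1.25). Log2 fold changes were below 0 for 6 of the 7 and above 0 for Cd3d (1.11, not called). For plasmacytoid dendritic cells, which make type I interferon, the sums were 18.7 to 19.2 CPM in heterozygous livers and 20.2 to 20.4 CPM in wild-type livers (0 of 2 tested markers called). Tcf4, which other cell types also express, made up most of that sum (16.8 to 18.1 CPM in heterozygous livers and 18.0 to 19.0 CPM in wild-type livers), and the other 4 of 6 markers were too low to test. Conventional dendritic cell markers summed to 9.35 to 11.1 CPM in heterozygous livers and 11.2 to 11.4 CPM in wild-type livers (0 of 5). Neutrophil and progenitor markers were at 346 to 444 CPM in heterozygous livers against 105 to 155 CPM in wild-type livers (7 of 8 higher). B lineage markers were at 30.3 to 36.5 CPM in heterozygous livers against 12.4 to 17.6 CPM in wild-type livers (4 of 6 higher). Erythroid markers were at 885 to 972 CPM in heterozygous livers against 1493 to 1851 CPM in wild-type livers (4 of 4 lower). Hepatocyte markers summed to 167790 to 183252 CPM in heterozygous livers and 157402 to 171020 CPM in wild-type livers (1 of 6 lower, 0 higher). Sinusoidal endothelial markers summed to 213 to 235 CPM in heterozygous livers and 212 to 221 CPM in wild-type livers. Of these 5 markers 1 was called lower and 0 higher, but 4 had log2 fold changes above 0, and the median was 0.14. None of the markers listed in the files was at 0 in every library. The part of these cells in the members' levels was not tested, and in whole liver RNA fewer cells of a type and less RNA per cell cannot be told apart.

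Interferon transcripts were few or absent from the counts. Of 17 ligand genes listed, 14 were at 0 in every library, among them Ifnb1 and the listed alpha interferons, and a count of 0 allows up to 3 counts. Ifng was at 1, 1 and 1 estimated counts in heterozygous livers and 3 and 1 in wild-type livers, too few to test. Ifnk had 2 estimated counts in heterozygous replicate 3 and 0 in the other libraries, and Ifnz had under 1 in each. Among all tested genes 12% were called either way, and none of the 8 tested receptor and Janus kinase genes passed. The lowest adjusted p among these 8 was that of Il10rb, a shared chain of interferon lambda receptors, at 0.101 (log2 fold change -0.32).

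Irf9, the DNA-binding part of the ISRE complex, was lower (18.4 ± 0.693 CPM in heterozygous livers, n = 3, and 27.6 ± 6.50 CPM in wild-type livers, n = 2, log2 fold change -0.59, adjusted p = 0.0189), and lost its call when wild-type replicate 1 (0.127) or heterozygous replicate 2 (0.0641) was left out. Pias1, which encodes a SUMO ligase that restrains interferon signalling, was higher (log2 fold change 0.34, adjusted p = 0.0483) but passed in only 3 of 13 alternative fits. Of 14 sensor adaptor and kinase genes 0 were lower and 1 was higher, beside 5.41% lower and 6.63% higher among all tested genes. That 1 of 14 is near the share over all genes. It was Trim25, a ubiquitin and ISG15 ligase that acts on RIG-I (96.2 ± 1.92 CPM in heterozygous livers, n = 3, and 69.7 ± 3.36 CPM in wild-type livers, n = 2, log2 fold change 0.46, adjusted p = 0.00264).

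A further list of 39 tested antiviral genes outside the members gave 7 lower (17.9%, the same share as the members) and 1 higher, with a median of -0.14. Among all tested genes 5.41% were lower and 6.63% higher. Beside Ube2l6 and Uba7, the lowest p-values among the lower genes were those of Ifitm3, which blocks virus entry (log2 fold change -0.50, adjusted p = 0.00256), and Samhd1, which breaks down deoxynucleotides (log2 fold change -0.64, adjusted p = 0.00849, and 0.0523 without wild-type replicate 1). The gene that was higher, named after its values were seen, was Trim14 (log2 fold change 0.49, adjusted p = 0.0379), which passed in 6 of 13 alternative fits.

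The GTPase list and the class I and immunoproteasome list, compared in the same fit, had larger shares called. Of 19 tested interferon-inducible GTPases 17 were lower (89.5%) and 0 higher, with a median log2 fold change of -0.93, against 7 of 39 (17.9%) and -0.21 for the antiviral members and 5.41% for all tested genes. Iigp1, Gbp2, Gbp10 and Igtp had log2 fold changes of -1.21, -1.16, -0.98 and -1.84, and the 2 that did not pass, named after their values were seen, were Gm4951 (-0.21) and Gvin1 (-0.66). Of 19 class I and immunoproteasome genes 14 were lower (73.7%) and 0 higher, with a median of -0.57. They included Psmb10 (-1.08), Psmb9 (-1.41), Psme2 (-0.73) and Tapbpl (-0.57). In both lists wild-type replicate 1 was the highest library for 18 of 19 genes (94.7%). Without it 12 GTPases and 10 class I and immunoproteasome genes were lower, with medians of -0.74 and -0.40. The lists also differed in level, which affects how many genes can be called. Of the members, 18 averaged under 10 CPM and 0 of these were called. Of the 21 at 10 CPM or more, 7 were lower, with a median of -0.27. No share of all tested genes at the same levels was computed. Most GTPase and class I and immunoproteasome genes were above 10 CPM. No test was made of the difference between lists.

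**Figure D4:**
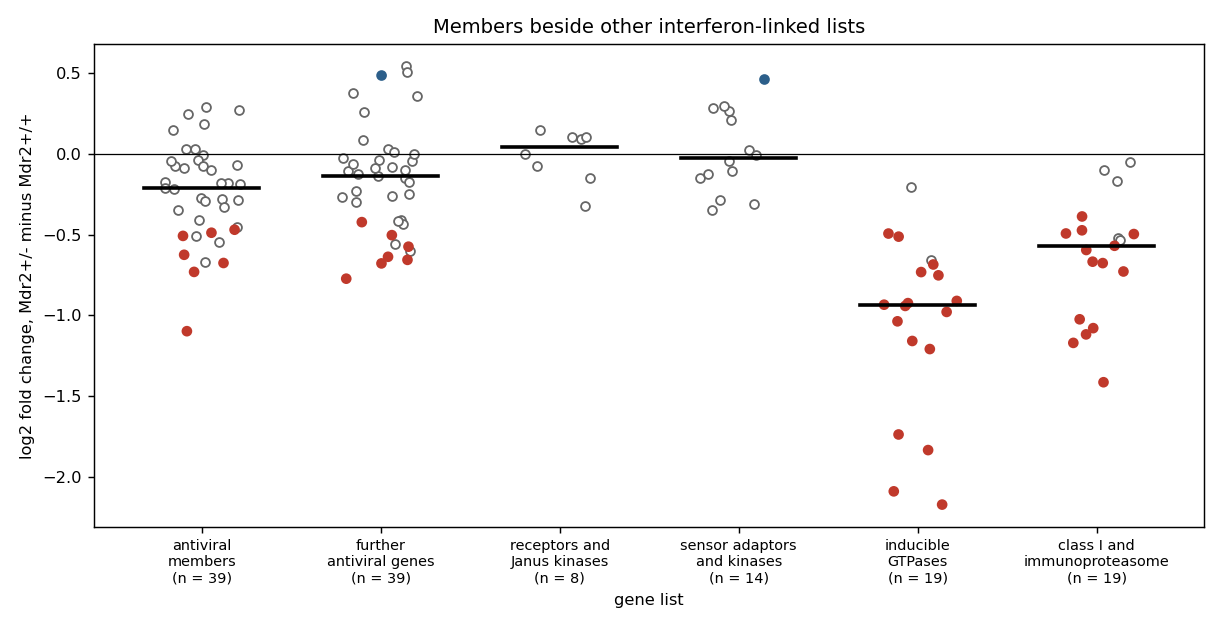
Log2 fold change (y axis, Mdr2+/- minus Mdr2+/+) of each tested gene in the antiviral members and 5 other lists (x axis, n tested genes each). Red points were called lower, blue points called higher, open points were not called, and the bar is the median, which is -0.21 for the members, -0.93 for the GTPases and -0.57 for class I and immunoproteasome genes.

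By position, several members are neighbours within 100 kb in GENCODE M21 on mm10 and are given side by side. No test of a difference between neighbours was made, and none of these genes passed. On chromosome 19, Ifit2, Ifit3 and Ifit1 follow each other with log2 fold changes of -0.18, 0.03 and -0.51. On chromosome 5, Oas2, Oas3, Oas1g and Oas1a had -0.28, -0.67, -0.17 and 0.29, and Oasl2 beside Oasl1 had -0.33 and 0.25. On chromosome 12, Rsad2 and Cmpk2 lie 12751 bases apart in opposite directions and had -0.28 and -0.54. Of the 39 members, 34 had fractional counts in at least 1 library, so reads may have been shared among related genes.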

How the data were processed

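Liver RNA (lobe 1) had been isolated from snap-frozen tissue, and libraries were made with the Illumina TruSeq RNA kit, per the labels' protocols. TopHat and the mouse build mm10 are named in the submitters' processing notes. No source used here gives the counting tool, annotation or strand setting. The deposited files hold estimated counts per Ensembl gene, not scaled to depth or length, 33.9 to 37.3% of the values above 0 being whole (tolerance 1e-06).

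Estimated counts were rounded to whole numbers. Genes were kept by filterByExpr (minimum count 10), which left 13959 genes with 99.9% of the counts. Genotypes were compared in edgeR 4.0.16 with TMM scaling and its quasi-likelihood test (two-sided, no covariate, adjusted p under 0.05), in R 4.3.3. Each SE was taken from the log2 fold change and its F statistic. Alternatives were 2 other filters, 2 other scalings, DESeq2 1.42.0, robust limma 3.58.1 (log2 CPM, prior count 2), the replicate number as a block, a transcript length offset and each library left out. Code was tested on simulated data. Every pair of libraries differed by more than sampling noise (chi-square per degree of freedom 5.30 to 25.8).

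The members and lists were chosen with earlier results of these data known. All members are named. The result for 1 other gene, and the summary of the list that holds it, are not reported here. Values in every library are given for members that passed, the most abundant member of each of 9 role groups, the largest differences in each direction and members whose call changed in more than 1 alternative, and for some others. Of other lists, up to 4 called genes with the lowest p, or the gene with the lowest p, are named. Positions and lengths are from GENCODE M21 (mm10), which matched all 39 members. Floors of 3 counts cover counting error only.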

Additional observations from a re-analysis of the deposited data

How the results depend on the processing

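No fit called a member higher. With every library, alternatives called 5 (transcript length offset) to 10 (no filter on low counts) members lower, and their median log2 fold change was -0.25 to -0.17. The number of calls over all genes also varied between fits, so these counts do not show whether the members' share changed. With 1 library left out, 3 to 7 members were lower, against 7 with all libraries, the lowest without wild-type replicate 1, where the median was -0.06; without wild-type replicate 2 it was -0.35. Over all genes, leaving out a library gave 345 to 670 higher and 352 to 504 lower. The cause was not tested beyond the loss of a library.

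With the replicate number as a block, 6 members were lower and 730 genes were higher and 547 lower; Ifi35 (adjusted p = 0.0930) and Xaf1 (0.0555) were lost and Usp18 (0.0428) gained. The numbers are not known to pair the samples, since the deviations of same-numbered libraries correlated by only 0.0304 and 0.0286.

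Signs of uncalled members turned in several fits, and the cause was not tested. Ddx58 was 0.0043 with no filter, 0.0033 with a summed count of at least 10, 0.0077 in DESeq2, 0.023 in robust limma and 0.043 with the block. By library size alone Ifit3 was -0.0095 and Eif2ak2 -0.0095. With the length offset Eif2ak2 was -0.0024 and Ifi27l2a 0.12. In robust limma Mx1 was 0.039 and Ifi27l2a 0.018, and with the block Ifi44 was 0.047. With 1 library left out the log2 fold change was -0.20 to 0.24 for Ddx58, -0.30 to 0.54 for Ifit3, -0.63 to 0.29 for Oas2, -0.40 to 0.57 for Oasl1, -0.088 to 0.16 for Eif2ak2, -0.42 to 0.63 for Mx1 and -0.16 to 0.61 for Mx2. It was -0.19 to 0.025 for Dtx3l, -0.37 to 0.055 for Parp14, -0.51 to 0.014 for Rsad2, -0.30 to 0.23 for Sp100, -0.25 to 0.21 for Ifi44, -0.53 to 0.66 for Ifi27l2a, and, outside the members, -1.11 to 0.14 for the GTPase gene Gvin1.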
